A study of Mus musculus with 8 samples.

Results

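The Rab family of small GTPases was examined in RNA sequencing data of mouse bone marrow-derived macrophages (BMDMs). Every row of the deposited table whose gene symbol is Rab followed by a number, with or without a letter and a further digit, was taken as a member, which gave 59 of 24539 genes, *Rab43* included. Genes that only interact with Rabs have other symbols and are not members. Of the 59 genes, 44 passed the filter on low counts and were tested together with all other genes that passed it, 11501 in all.

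The 4 groups were LPS-treated Tut7-/-, LPS-treated wild-type, untreated Tut7-/- and untreated wild-type BMDMs, with 2 libraries each, from C57BL/6 males of 7 weeks. LPS, the outer membrane lipid of Gram-negative bacteria that activates Toll-like receptor TLR4, was given at 100 ng/ml for 4 h. Tut7 (Zcchc6) is a terminal uridylyltransferase, and its gene was disrupted in the germline by CRISPR/Cas9 with guides in its first and 26th introns, so it is lost in every cell type of the mouse and all through macrophage differentiation. The progenitors were grown for 7 days in medium conditioned by L929 cells and kept overnight in M-CSF, which the untreated cells received too.

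Rab proteins are molecular switches that are anchored to membranes by prenyl groups and cycle between a GDP-bound and a GTP-bound state. Exchange factors load GTP, GTPase-activating proteins end the active state, and GDP dissociation inhibitors keep the inactive protein in the cytosol. Each Rab marks its own membrane, such as the endoplasmic reticulum (ER) and Golgi, the early, recycling and late endosome, or secretory granules, and recruits tethers and motors there. In macrophages this machinery serves phagosome maturation, delivery of TLR4 to the surface and its removal, and cytokine secretion.

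The libraries held 3767900 to 9394632 counts, of which 0.41% to 0.5% fell on the 59 Rab genes. *Zcchc6*, the gene targeted, had 18 and 19 counts in LPS-treated Tut7-/-, 1162 and 716 in LPS-treated wild-type, 17 and 23 in untreated Tut7-/- and 427 and 615 in untreated wild-type libraries. All 8 macrophage markers on the list (among them *Adgre1*, *Csf1r* and *Lyz2*) were detected, with a summed level of 18000 to 40000 CPM (counts scaled to library size by TMM). Of the T cell, B cell, neutrophil and platelet markers, *Cd3d*, *Cd3g*, *Pax5*, *Ly6g*, *Mpo*, *Elane* and *Gp9* had no counts in any library. Others of these lists were detected, such as *Cd4* with 19 to 156 and *Pf4* with 301 to 749 counts per library. *Lck* had 140 and 170 counts in LPS-treated Tut7-/- and 64 and 52 in LPS-treated wild-type libraries. Counts of single markers in this paragraph are not scaled to library size. The totals were 8094190 and 9394632 counts in LPS-treated Tut7-/- and 5922777 and 3767900 in LPS-treated wild-type libraries. Scaled, the 6 T cell markers summed to 28.9 to 30.7 CPM in LPS-treated Tut7-/- and 22.6 to 23.6 CPM in LPS-treated wild-type libraries. The 6 stroma markers summed to 20.7 to 20.9 CPM in LPS-treated Tut7-/- against 85.9 to 96.6 CPM in LPS-treated wild-type libraries, and to 24.1 CPM in both untreated Tut7-/- against 63.8 to 72.1 CPM in untreated wild-type libraries. The 6 dendritic cell markers, most of whose counts were those of *Ccl22* after LPS, summed to 261 to 265 CPM in LPS-treated Tut7-/- and 584 to 619 CPM in LPS-treated wild-type libraries, and ran the other way in untreated cells, with 67.8 to 81.5 CPM in Tut7-/- libraries and 28.1 CPM in wild-type libraries. After LPS *Ccl22* had 1234 and 1390 counts in Tut7-/- and 2463 and 1747 in wild-type libraries, and *Itgax* had 318 and 447 in Tut7-/- and 134 and 85 in wild-type libraries. The part of these differences in the Rab results was not tested. In bulk RNA, fewer cells of a type and less RNA per cell cannot be told apart.

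The coding sequences around the phosphate-binding loop show how close the paralogs are whose levels are compared below. The stretches were read from GENCODE M21 transcripts of the mouse build GRCm38 (mm10), and the capitals mark the 8 codons of the loop that holds the phosphates of GTP. *Rab1a* and *Rab1b* are both ER-to-Golgi Rabs, *Rab5a*, *Rab5b* and *Rab5c* are early endosome Rabs, and *Rab43* is the Golgi Rab with the largest genotype difference after LPS among those called.
Rab1a: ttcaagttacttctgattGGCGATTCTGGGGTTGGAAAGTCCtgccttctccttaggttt
Rab1b: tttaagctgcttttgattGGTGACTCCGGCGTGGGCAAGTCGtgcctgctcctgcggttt
Rab5a: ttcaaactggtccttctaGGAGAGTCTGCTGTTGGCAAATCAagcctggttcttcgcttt
Rab5b: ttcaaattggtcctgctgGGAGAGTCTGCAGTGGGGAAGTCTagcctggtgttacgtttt
Rab5c: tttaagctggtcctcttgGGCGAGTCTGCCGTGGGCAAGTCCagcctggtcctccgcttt
Rab43: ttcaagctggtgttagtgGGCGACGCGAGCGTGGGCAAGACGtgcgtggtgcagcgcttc
*Rab1a* and *Rab1b* differed at 14 of these 60 bases and *Rab5a* and *Rab5c* at 12, while each pair encoded the same peptide there. The paralogs differ in base composition. The *Rab1a* transcript held 40.8% G or C and that of *Rab1b* 58.9%, and the values were 42.3% for *Rab5a*, 49.1% for *Rab5b*, 54.7% for *Rab5c* and 56.4% for *Rab43*.

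*Rab7b* lies on chromosome 1 from 131688695 to 131715439, *Rab31* on chromosome 17 from 65651729 to 65772752, *Rab5a* on chromosome 17 from 53479234 to 53507680 and *Rab1a* on chromosome 11 from 20201432 to 20226856 (GRCm38). The transcripts of *Rab1a*, *Rab7b*, *Rab31* and *Rab32* shared no run of 75 bases, the length of 1 read, with another gene of the annotation. *Rab43*, on chromosome 6 from 87788853 to 87812164 on the minus strand, shared 89.9% of its 75-base runs with *Gm45140*, an annotated read-through model on the same strand that the deposited table does not list. Reads of that model cannot be told apart from reads of *Rab43*. The share was 77.6% for *Rab4b* (with *Gm21983*), 73.1% for *Rab2b* (with *Gm43766* and *Tox4*), 33.6% for *Rab24* (with the antisense neighbour *Prelid1*), 22.4% for *Rab33b*, 21.5% for *Rab20*, 20.7% for *Rab6a* (with *Mrpl48*) and 19.8% for *Rab7* (with a pseudogene and an antisense gene). Whether reads were counted by strand, and how reads that match several genes were counted, was not given in the sources used here, so these members are uncertain to that extent. Of the 59 members 11 shared over 10% and 36 shared none.

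Levels can be set beside each other between genes only per length, which the deposited RPKM, a read density scaled to transcript length and library size, allow. In untreated wild-type BMDMs *Rab7*, which takes late endosomes to lysosomes, had the highest mean level of the family at 258 RPKM (2 libraries), followed by *Rab5c* at 209 RPKM and *Rab1b* at 119 RPKM. *Rab5c* led in the other 3 groups, at 279.8 RPKM in LPS-treated Tut7-/-, 245 RPKM in LPS-treated wild-type and 277 RPKM in untreated Tut7-/- BMDMs. After LPS *Rab32*, a Rab of lysosome-related organelles that acts against intracellular bacteria, reached 176 RPKM in Tut7-/- and 213 RPKM in wild-type BMDMs, and *Rab8b*, a Rab of surface transport, 120.4 and 169.7 RPKM in the same order. A level of at least 10 RPKM was reached by 28 members in LPS-treated Tut7-/-, 27 in LPS-treated wild-type, 31 in untreated Tut7-/- and 33 in untreated wild-type BMDMs. The RPKM are not scaled by TMM, so they order genes within a group and do not give changes between groups. On the TMM scale, a mean over 100 CPM was reached by 23, 20, 11 and 14 members in the same order of groups. *Rab43* stood at rank 22 of 59 with 26.3 RPKM, rank 28 with 9.0 RPKM, rank 10 with 40.4 RPKM and rank 23 with 30.4 RPKM in these 4 groups.

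**Figure D1:**
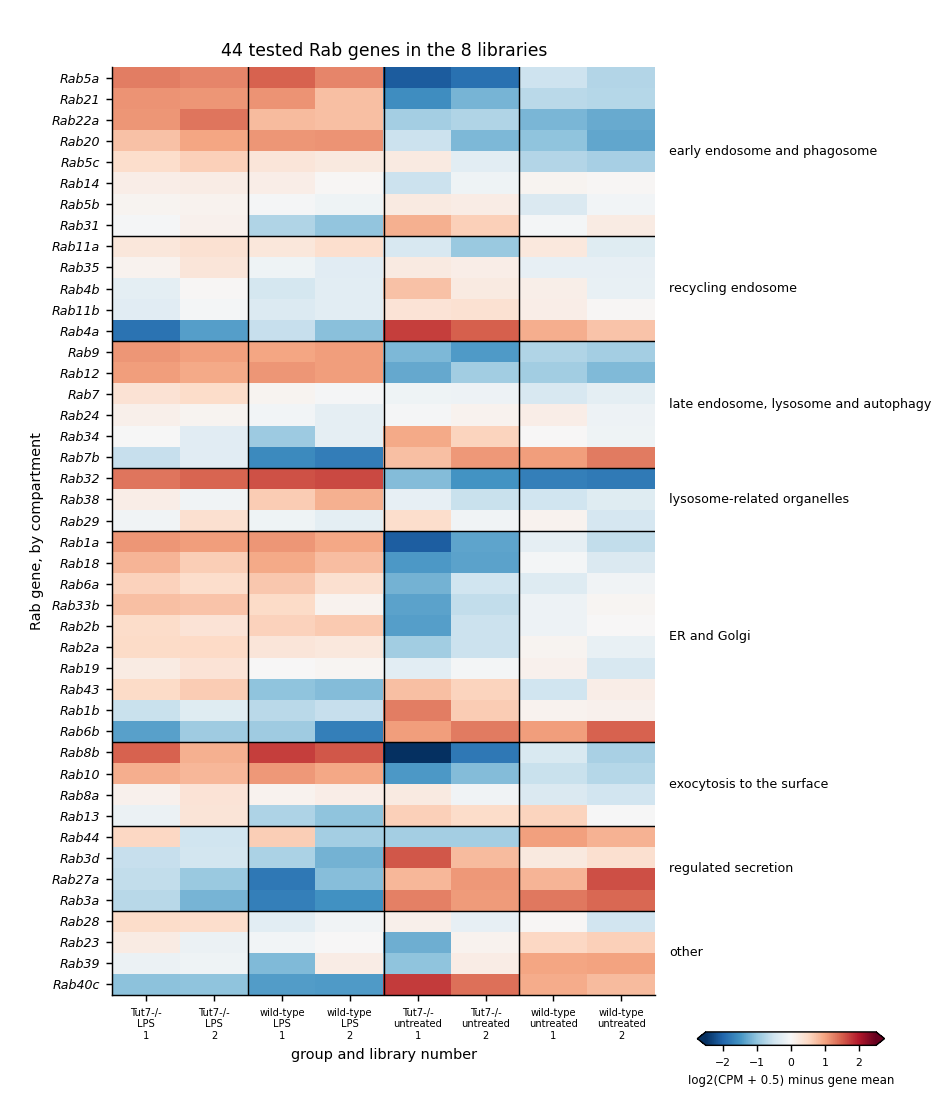
The 44 tested Rab genes (rows, by the compartment on which the Rab is known to act) in the 8 libraries (columns, grouped). Colour is log2(CPM + 0.5) minus the gene's mean over the 8 libraries, with the scale ending at −2.5 and 2.5, and *Rab32*, *Rab8b* and *Rab5a* are higher, and *Rab40c* and *Rab3d* lower, in the 4 LPS columns than in the 4 untreated ones.

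The first comparison asked which Rab genes differ between the genotypes once LPS has acted. Only *Rab43*, *Rab7b* and *Rab31* were called among the 44 tested members, all 3 higher in Tut7-/- BMDMs. A gene was called at an adjusted p under 0.05 in the quasi-likelihood F-test of edgeR, with Benjamini-Hochberg adjustment over the 11501 tested genes, and every adjusted p below is from this test unless another is named. Of all tested genes, 0.626% were called higher and 0.774% lower in the same comparison. No member was called lower, none was lower at an unadjusted p under 0.05, and the Wald test of DESeq2 called the same number, 3 higher and 0 lower. The median log2 fold change was 0.18 over the 44 members and 0.10 over all tested genes.

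*Rab43*, known in mice for its part in cross-presentation by dendritic cells and in cell culture for its role at the Golgi, had 153 and 169.5 CPM in LPS-treated Tut7-/- libraries and 54.2 and 51.5 CPM in LPS-treated wild-type libraries. The mean was 161 ± 11.9 CPM in Tut7-/- libraries and 52.8 ± 1.93 CPM in wild-type BMDMs (SD, n = 2 each). The 4 values did not overlap between the genotypes, and the log2 fold change was 1.61 (standard error 0.242, adjusted p = 0.0034 from edgeR). Untreated, *Rab43* had 183 and 162 CPM in Tut7-/- libraries and 76.8 and 124 CPM in wild-type libraries, a log2 fold change of 0.78 (standard error 0.231, edgeR adjusted p = 0.017). LPS lowered *Rab43* in wild-type BMDMs, to a log2 fold change against untreated cells of −0.92 (standard error 0.239, edgeR adjusted p = 0.004). With the correction for transcript length and GC content described below it was −0.45 (edgeR adjusted p = 0.025). It was −0.55 without untreated wild-type replicate 2. In Tut7-/- BMDMs the change with LPS was −0.10 (standard error 0.23, edgeR adjusted p = 0.71), and 0.51 (edgeR adjusted p = 0.0081) with the same correction. The difference between the uncorrected changes, Tut7-/- minus wild-type, was 0.82 with a 95% interval of 0.12 to 1.53 and did not pass the threshold (edgeR adjusted p = 0.15), so the 2 LPS responses were not shown to differ without the correction.

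*Isy1*, *Cnbp* and *Copg1*, picked from the genes near *Rab43* on chromosome 6, were not called, and the rest of the region was not surveyed. After LPS the log2 fold change was 0.12 for *Isy1*, −0.01 for *Cnbp* and −0.02 for *Copg1*, with standard errors of 0.201 to 0.263. Under the 16 alternatives *Rab43* kept a log2 fold change of 1.48 to 1.65 after LPS and was called in 13 of them. It lost the call without LPS-treated wild-type replicate 1 (edgeR adjusted p = 0.17) or replicate 2 (0.15) and without LPS-treated Tut7-/- replicate 2 (0.08), fits in which 14 to 16 of all genes were called, against 161 with every library.

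*Rab7b*, which in mouse macrophages is known to send TLR4 to lysosomes, had 49.4 and 60.8 CPM in LPS-treated Tut7-/- and 24.1 and 22 CPM in LPS-treated wild-type libraries. These values did not overlap, and the log2 fold change was 1.253 (standard error 0.234, edgeR adjusted p = 0.014). Untreated, it had 124 and 156 CPM in Tut7-/- libraries and 153 and 183 CPM in wild-type libraries, which overlapped (log2 fold change −0.26, not called). *Rab31*, a relative of the Rab5 group that links the trans-Golgi network with endosomes, had 198 and 217 CPM in LPS-treated Tut7-/- and 119 and 102 CPM in LPS-treated wild-type libraries. The log2 fold change of *Rab31* was 0.91 (standard error 0.214, edgeR adjusted p = 0.048), and untreated it was 0.67 (standard error 0.21, edgeR adjusted p = 0.023) from 374 and 302 CPM in Tut7-/- libraries and 194 and 231 CPM in wild-type libraries.

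*Rab7b* and *Rab31* were less stable than *Rab43* when libraries were left out. Both lost the call without either LPS-treated wild-type library or either LPS-treated Tut7-/- library, with edgeR adjusted p of 0.095 to 0.33 for *Rab7b* and 0.27 to 0.58 for *Rab31*. *Rab31* was called in 7 of 16 alternatives and *Rab7b* in 11. The number of members called was 0 without either LPS-treated wild-type library or without LPS-treated Tut7-/- replicate 2, 1 without LPS-treated Tut7-/- replicate 1, and 9 (7 higher, 2 lower) in a fit of the 4 LPS-treated libraries alone. Among the 41 members not called, *Rab13*, *Rab28* and *Rab22a* had an unadjusted p under 0.05, with log2 fold changes of 1.05, 0.63 and 0.46.

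**Figure D2:**
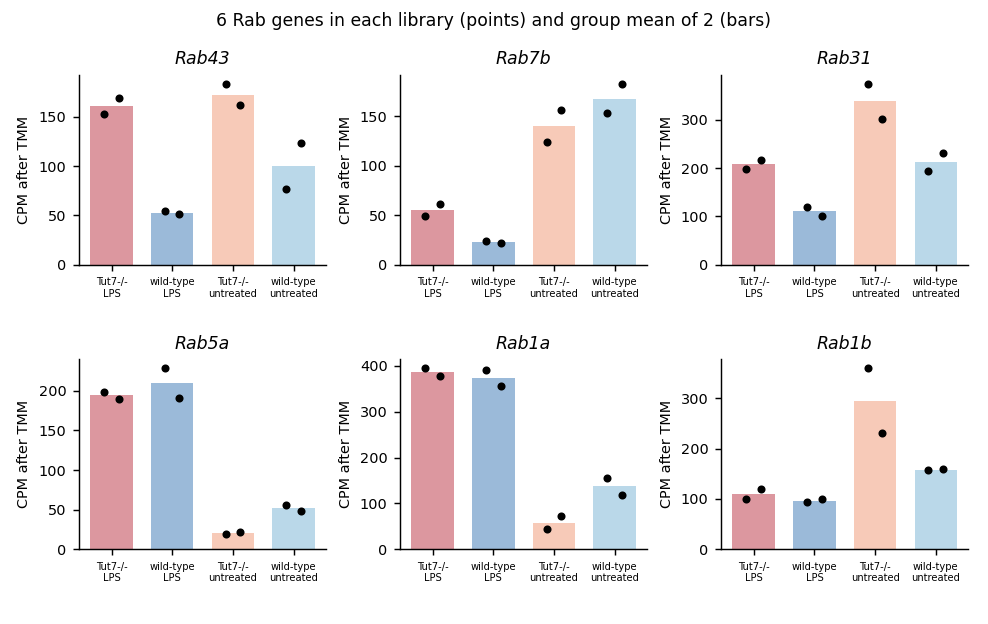
CPM after TMM scaling of 6 Rab genes in each library (points), with the mean of the 2 libraries as bars, for LPS-treated Tut7-/-, LPS-treated wild-type, untreated Tut7-/- and untreated wild-type BMDMs. *Rab43*, *Rab7b* and *Rab31* are higher in the Tut7-/- libraries of the LPS-treated pair, while *Rab5a* and *Rab1a* differ between genotypes in untreated BMDMs.

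LPS moved much of the family in both genotypes, as it did the tested genes as a whole. In Tut7-/- BMDMs 20 members rose and 12 fell (45.5% and 27.3% of the 44), where 34.8% of all tested genes were called higher and 33.2% lower. In wild-type BMDMs 15 members rose and 12 fell (34.1% and 27.3%), against 27% of all tested genes higher and 30.4% lower. The median log2 fold change of the members was 0.49 in Tut7-/- and 0.09 in wild-type BMDMs, and that of all tested genes was −0.07 and −0.17. Of the 20 members that rose in Tut7-/- BMDMs, 13 (65%) were among the 15 that rose in wild-type BMDMs (86.7% of these), and the lists of 12 that fell shared 9 (75% of each). No member rose in one genotype and fell in the other. With library size alone in place of TMM, which moved the median of all tested genes by −0.56 in Tut7-/- and −0.83 in wild-type BMDMs, 14 members were called higher and 16 lower in Tut7-/- and 9 higher and 23 lower in wild-type BMDMs, so the directions below are relative to the bulk of the genes. With an offset for the length and GC content of each transcript, an alternative chosen after the data were seen, 25 of the 32 calls in Tut7-/- and 25 of the 27 in wild-type BMDMs kept their direction and their call. In Tut7-/- BMDMs *Rab6a* and *Rab7* lost the call and 5 members changed sign, of which *Rab11a*, *Rab14* and *Rab4b* were then called in the other direction. Several larger rises given below kept their call at a smaller size. Their log2 fold changes in Tut7-/- and wild-type BMDMs were then 1.57 and 1.45 for *Rab8b*, 1.71 and 1.32 for *Rab5a*, and 1.13 and 0.73 for *Rab1a*. For *Rab21* they were 0.99 and 0.96 and for *Rab10* 0.86 and 1.24, while those of *Rab20* grew to 2.61 and 2.69.

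Of the 8 tested Rabs of the early endosome and phagosome 6 were higher and 1 lower in Tut7-/-, and 5 higher and 1 lower in wild-type BMDMs. Among the 6, *Rab14*, which links the Golgi and endosomes, had a log2 fold change of 0.49 (edgeR adjusted p = 0.046), and −0.97 (edgeR adjusted p = 6.5e-06) with the length and GC offset. *Rab5a*, which drives early endosome fusion, had 199 and 190 CPM in LPS-treated and 18.8 and 22.1 CPM in untreated Tut7-/- libraries, and 228 and 191 CPM in LPS-treated and 56.3 and 48.5 CPM in untreated wild-type libraries. That was a log2 fold change of 3.25 in Tut7-/- (standard error 0.224, edgeR adjusted p = 6.1e-09) and 2.0 in wild-type BMDMs (standard error 0.212, edgeR adjusted p = 9.5e-07). *Rab22a*, a Rab of endosomal sorting, rose by a log2 fold change of 2.03 in Tut7-/- and 1.98 in wild-type BMDMs, with 148 and 176 CPM in LPS-treated and 38.2 and 40.8 CPM in untreated Tut7-/- libraries, and 119 and 116 CPM in LPS-treated and 30.9 and 28.6 CPM in untreated wild-type libraries. *Rab20*, which acts in phagosome maturation, had 29.4 and 35 CPM in LPS-treated and 11.9 and 7.79 CPM in untreated Tut7-/- libraries, and 38.3 and 38.7 CPM in LPS-treated and 8.47 and 6.75 CPM in untreated wild-type libraries, with log2 fold changes of 1.72 and 2.34 in Tut7-/- and wild-type BMDMs. *Rab21*, a Rab of integrin endocytosis, had 178 and 174 CPM in LPS-treated and 27.3 and 35.7 CPM in untreated Tut7-/- libraries, and 177 and 137 CPM in LPS-treated and 50.3 and 49.3 CPM in untreated wild-type libraries, with log2 fold changes of 2.48 in Tut7-/- and 1.66 in wild-type BMDMs. The member that fell in both was *Rab31* (log2 fold changes −0.70 in Tut7-/- and −0.95 in wild-type BMDMs).

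Of 4 tested Rabs of surface transport 2 rose in Tut7-/- BMDMs, and 3 rose and 1 fell in wild-type BMDMs. Of 3 Rabs of lysosome-related organelles 1 rose in Tut7-/- and 2 in wild-type BMDMs. *Rab8b* had 908 and 610.3 CPM in LPS-treated and 50.9 and 95.3 CPM in untreated Tut7-/- libraries, and 1094 and 969 CPM in LPS-treated and 251 and 186 CPM in untreated wild-type libraries, and the groups did not overlap. Its log2 fold change was 3.37 in Tut7-/- (standard error 0.311, edgeR adjusted p = 1.6e-07) and 2.24 in wild-type BMDMs (standard error 0.295, edgeR adjusted p = 1.1e-05). *Rab10*, which brings TLR4 to the surface of mouse macrophages, rose too (log2 fold changes 2.13 in Tut7-/- and 1.66 in wild-type BMDMs). *Rab32* had 459.7 and 501 CPM in LPS-treated and 85.7 and 63.9 CPM in untreated Tut7-/- libraries, and 551 and 568 CPM in LPS-treated and 55.5 and 52.9 CPM in untreated wild-type libraries, a log2 fold change of 2.69 in Tut7-/- (standard error 0.223) and 3.37 in wild-type BMDMs (standard error 0.23), the largest rise of a member in wild-type BMDMs. *Rab38*, its partner in pigment granule formation, was called higher only in wild-type BMDMs (1.38, against 0.55 in Tut7-/-), and the difference of the responses was not called. Among the 6 tested Rabs of late endosomes, lysosomes and autophagy 3 rose and 2 fell in Tut7-/- BMDMs, and 2 rose and 1 fell in wild-type BMDMs. *Rab12*, a Rab of lysosomal degradation, rose by 2.07 on the log2 scale in Tut7-/- and by 2.08 in wild-type BMDMs, with 191 and 178 CPM in LPS-treated and 37.7 and 50.1 CPM in untreated Tut7-/- libraries, and 198 and 192 CPM in LPS-treated and 50.1 and 42.5 CPM in untreated wild-type libraries.

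In the ER and Golgi class 6 of 10 tested members rose and 2 fell in Tut7-/- BMDMs, and 3 rose and 3 fell in wild-type BMDMs. *Rab1a* had 394 and 379 CPM in LPS-treated and 43.3 and 72.6 CPM in untreated Tut7-/- libraries, and 391 and 357 CPM in LPS-treated and 156 and 119 CPM in untreated wild-type libraries. Its log2 fold change was 2.73 in Tut7-/- (standard error 0.261, edgeR adjusted p = 2.4e-07) and 1.45 in wild-type BMDMs (standard error 0.249, edgeR adjusted p = 0.00015). Its paralog *Rab1b* fell, with 100.3 and 119.8 CPM in LPS-treated and 359.8 and 231 CPM in untreated Tut7-/- libraries, and 92.9 and 99 CPM in LPS-treated and 157 and 159 CPM in untreated wild-type libraries and log2 fold changes of −1.42 and −0.72. With the length and GC offset *Rab1b* had −0.39 in Tut7-/- (edgeR adjusted p = 0.019) and −0.15 in wild-type BMDMs (edgeR adjusted p = 0.37), and its wild-type call was also lost without LPS-treated wild-type replicate 1 (edgeR adjusted p = 0.12) or replicate 2 (0.073). *Rab6b*, the neuronal form of the Golgi Rab *Rab6a*, fell by 2.46 on the log2 scale in Tut7-/- and by 2.67 in wild-type BMDMs, to 2.21 and 3.29 CPM in Tut7-/- (untreated 13.9 and 16.8 CPM) and 3.26 and 1.64 CPM in wild-type libraries (untreated 13.9 and 18.9 CPM). *Rab18*, *Rab2a*, *Rab2b*, *Rab33b* and *Rab6a* were higher in Tut7-/- BMDMs by log2 fold changes of 1.18 to 2.14, and of these *Rab18* and *Rab6a* were also called in wild-type BMDMs. With the length and GC offset the values in Tut7-/- BMDMs were 0.45 for *Rab18*, 0.73 for *Rab33b*, 0.69 for *Rab2b*, 0.11 for *Rab6a* and −0.06 for *Rab2a*, and neither *Rab6a* nor *Rab2a* was called. *Rab6a* lost its wild-type call too (0.34, edgeR adjusted p = 0.067).

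Of the 4 tested Rabs of regulated secretion 3 fell in each genotype, and the recycling Rab *Rab4a* and the SOCS-box Rab *Rab40c* fell with them. *Rab3a*, best known from synaptic vesicles, had 0.949 and 0.549 CPM in LPS-treated and 5.16 and 4.43 CPM in untreated Tut7-/- libraries, and 0.218 and 0.328 CPM in LPS-treated and 5.39 and 5.87 CPM in untreated wild-type libraries. The wild-type LPS-treated libraries held 2 counts against 116 untreated, a ratio of 21.6 with an exact 95% counting interval of 5.86 to 181. *Rab27a*, which docks lysosome-related granules, had 7 counts in LPS-treated and 57 in untreated Tut7-/- libraries, 5.7-fold lower (exact interval 2.6 to 14.8), and 1 against 79 in wild-type libraries, a ratio of 29.5 (5.14 to 1180). In single libraries that was 0.633 and 0.412 CPM in LPS-treated and 2.58 and 3.19 CPM in untreated Tut7-/- libraries, and 0 and 0.328 CPM in LPS-treated and 2.64 and 4.82 CPM in untreated wild-type libraries. *Rab4a* of fast endocytic recycling had 0.158 and 0.412 CPM in LPS-treated and 7.38 and 6.2 CPM in untreated Tut7-/- libraries, and 1.09 and 0.655 CPM in LPS-treated and 3.96 and 3.42 CPM in untreated wild-type libraries, a log2 fold change of −4.45 in Tut7-/- (standard error 0.548) and −2.0 in wild-type BMDMs (standard error 0.543). *Rab40c*, part of a ubiquitin ligase, had 9.65 and 9.75 CPM in LPS-treated and 69.2 and 53.1 CPM in untreated Tut7-/- libraries, and 7.4 and 7.21 CPM in LPS-treated and 39 and 35.3 CPM in untreated wild-type libraries, with log2 fold changes of −2.65 and −2.34. *Rab3d* of secretory granules fell by 1.76 on the log2 scale in Tut7-/- and by 1.31 in wild-type BMDMs, with 16.1 and 17.7 CPM in LPS-treated and 72.5 and 42.8 CPM in untreated Tut7-/- libraries, and 13.9 and 10.5 CPM in LPS-treated and 28.8 and 32.5 CPM in untreated wild-type libraries.

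The late endosomal *Rab7b*, with the CPM given above, had a log2 fold change of −1.35 with LPS in Tut7-/- (standard error 0.218) and −2.86 in wild-type BMDMs (standard error 0.239). *Rab44*, a large Rab of mast cells and osteoclasts, had 0.791 and 0.137 CPM in LPS-treated and 0 and 0 CPM in untreated Tut7-/- libraries, and 0.87 and 0 CPM in LPS-treated and 1.32 and 1.14 CPM in untreated wild-type libraries. It had 6 counts in LPS-treated and 0 in untreated Tut7-/- libraries, at least 2.86-fold higher over a floor of 3 counts for the group, while the exact 95% counting interval of the ratio began at 1.68-fold. It was called there (edgeR adjusted p = 0.035), and in 8 of 14 alternatives. The call was lost with library size alone, without any 1 of the 4 untreated libraries and without LPS-treated Tut7-/- replicate 1 (edgeR adjusted p = 0.29). Members with no call in either genotype were *Rab5b*, *Rab35*, *Rab24*, *Rab29*, *Rab19*, *Rab23* and *Rab28*. The endocytic recycling Rabs *Rab11a*, *Rab11b* and *Rab4b* were called only in Tut7-/- BMDMs (log2 fold changes 0.99, −0.53 and −0.60), and the difference of the responses was not called for any of them. In Tut7-/- BMDMs the length and GC offset turned *Rab11a* to −0.61 (edgeR adjusted p = 0.0054), *Rab4b* to 0.48 (edgeR adjusted p = 0.0088) and *Rab34*, which fell there (−0.92), to 0.15.

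**Figure D3:**
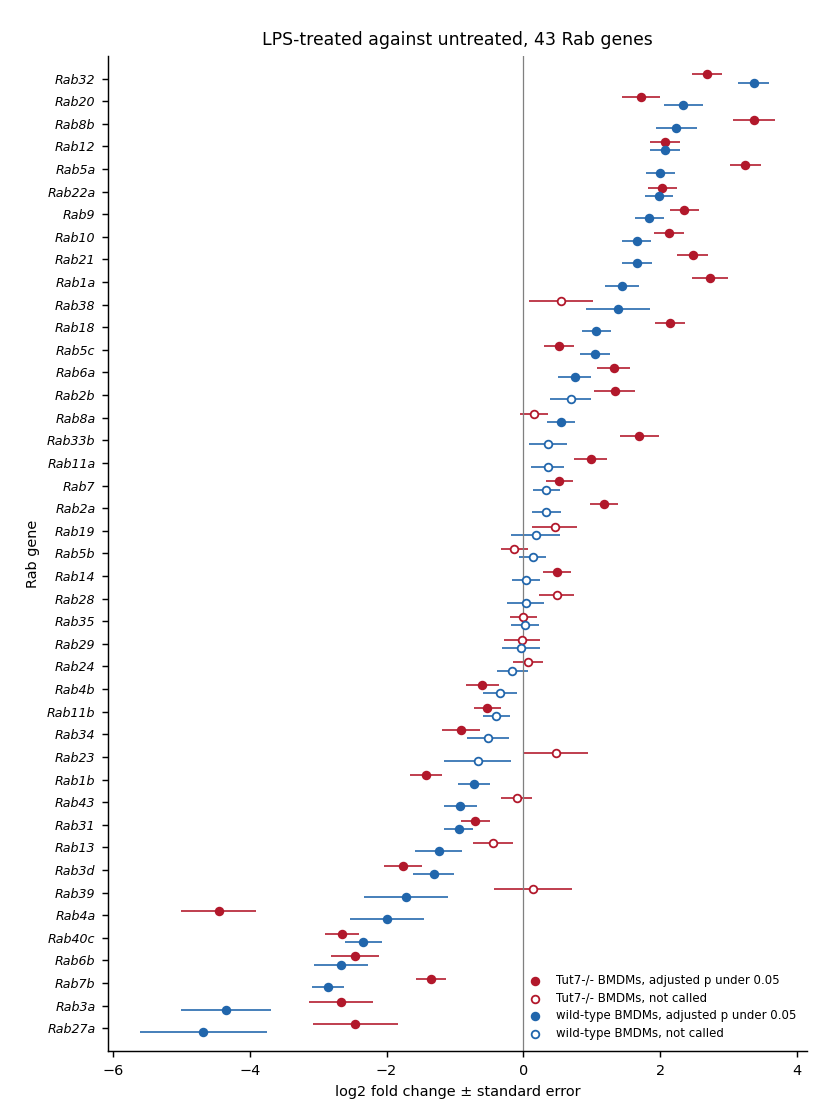
Log2 fold change of 43 tested Rab genes, LPS-treated against untreated, in Tut7-/- (red) and wild-type (blue) BMDMs, with 1 standard error; filled points were called. *Rab44*, with no counts in untreated Tut7-/- libraries, is left out. *Rab32*, *Rab8b* and *Rab5a* lie at the upper end and *Rab27a*, *Rab3a* and *Rab4a* at the lower end.

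The next comparison asked which Rab genes differ between the genotypes without LPS. In untreated BMDMs 7 members were higher and 12 lower in Tut7-/- than in wild-type, where 14.8% of all tested genes were called higher and 22.2% lower. The median log2 fold change was −0.001 over the members and 0.01 over all tested genes. Both *Rab5a* and *Rab1a*, of the early endosome and the ER-to-Golgi path, were lower. *Rab5a* had 18.8 and 22.1 CPM in untreated Tut7-/- and 56.3 and 48.5 CPM in untreated wild-type libraries, a log2 fold change of −1.35 (standard error 0.214, edgeR adjusted p = 0.00062). *Rab1a* had 43.3 and 72.6 CPM in untreated Tut7-/- and 156 and 119 CPM in untreated wild-type libraries (−1.24, standard error 0.25, edgeR adjusted p = 0.0024). In each of these pairs both Tut7-/- values lay below both wild-type values.

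The paralogs of these genes went the other way. *Rab5c* had 598 and 427 CPM in untreated Tut7-/- and 308 and 289 CPM in untreated wild-type libraries, a log2 fold change of 0.78 (standard error 0.214, edgeR adjusted p = 0.012). *Rab1b* had 359.8 and 231 CPM in untreated Tut7-/- and 157 and 159 CPM in untreated wild-type libraries, a log2 fold change of 0.90 (standard error 0.228, edgeR adjusted p = 0.0082). *Rab5b* was not called (0.42).

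The other members called lower, besides *Rab44*, were mainly of the ER, Golgi and surface paths. *Rab8b* had 50.9 and 95.3 CPM in untreated Tut7-/- and 251 and 186 CPM in untreated wild-type libraries (−1.58, the largest fall of a gene with counts in every library). *Rab18*, found on the ER and lipid droplets, had 27.4 and 29.6 CPM in Tut7-/- against 72.4 and 58.4 CPM in wild-type libraries (−1.20). For *Rab33b*, which takes part in autophagosome formation, Tut7-/- libraries had 8.6 and 14.3 CPM and wild-type libraries 20.4 and 23.1 CPM (−0.91). The Golgi Rab *Rab2b* had 4.79 and 8.95 CPM in Tut7-/- libraries and 12 and 13.3 CPM in wild-type libraries (−0.86), and *Rab2a* 62.3 and 78.6 CPM in Tut7-/- libraries and 120.2 and 100.2 CPM in wild-type libraries (−0.64). These ER and Golgi genes had non-overlapping values throughout. *Rab21* had 27.3 and 35.7 CPM in Tut7-/- libraries and 50.3 and 49.3 CPM in wild-type libraries (−0.66), and *Rab10* 74.2 and 94.8 CPM in Tut7-/- libraries and 137 and 123 CPM in wild-type libraries (−0.62). *Rab11a*, the Rab of slow recycling that in human monocytes carries TLR4 to phagosomes, had 89.6 and 62.2 CPM in Tut7-/- libraries and 142 and 96.2 CPM in wild-type libraries (−0.65). *Rab39*, a Rab of phagosomes and autophagy, was low, at 0.738 and 2.3 CPM in Tut7-/- libraries and 4.4 and 4.47 CPM in wild-type libraries (−1.47). Both Tut7-/- libraries held no *Rab44* count, against 25 counts in the wild-type ones, at least 7.9-fold lower over a floor of 3 counts for the group, with an exact 95% counting interval that began at 5.96-fold.

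The other members called higher were *Rab31* and *Rab43*, given above, and *Rab3d*, *Rab34* and *Rab40c*. *Rab3d* had 72.5 and 42.8 CPM in untreated Tut7-/- and 28.8 and 32.5 CPM in untreated wild-type libraries (0.91). *Rab34*, which positions lysosomes, had 29.5 and 22.2 CPM in Tut7-/- libraries and 15.2 and 13.8 CPM in wild-type libraries (0.83), and *Rab40c* 69.2 and 53.1 CPM in Tut7-/- libraries and 39 and 35.3 CPM in wild-type libraries (0.72). Values of the genotypes did not overlap for these 3 genes. The edgeR adjusted p of the 13 members of this and the preceding paragraph ran from 0.0012 to 0.044.

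The direction of these untreated differences followed the GC content of the transcripts. Among the 36 tested members other than *Rab44* whose transcript length matched that implied by the deposited values, Pearson's r of GC content with the log2 fold change was 0.819, across genes that are not independent and share their libraries (0.277 with *Rab44*), and it was 0.648 over 10283 tested genes of the whole table. The 7 members called higher had 49.4% to 59.5% G or C, and the 10 of the 12 called lower with a matched transcript had 39.5% to 56.7%, with *Rab44* the highest. When length and GC content were modelled as that offset, r became 0.111 among the 36, and 13 members were called, 10 higher and 3 lower. Only 5 of these were among the 19 called without it, *Rab31*, *Rab3d*, *Rab43*, *Rab44* and *Rab5a*, whose corrected log2 fold changes other than that of *Rab44* were 0.88, 0.74, 0.52 and −0.44. The opposite calls of *Rab1a* (−0.23) and *Rab1b* (0.26) were lost, as was that of *Rab5c* (0.28). *Rab5b* (0.61, edgeR adjusted p = 0.0069) was called with the offset. *Rab2a* (0.09), *Rab21* (0.19), *Rab10* (0.22) and *Rab11a* (0.38) changed sign. After LPS, r was 0.251 among the 36 members, and with the correction *Rab43* (1.48), *Rab7b* (1.13) and *Rab31* (0.74) were the 3 members called.

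The untreated count also moved with single libraries and with scaling. It was 5 without untreated wild-type replicate 1 and 10 without its replicate 2, 10 without untreated Tut7-/- replicate 1, 12 without LPS-treated wild-type replicate 2, 12 without either LPS-treated Tut7-/- library and 7 in a fit of the 4 untreated libraries. Scaling by library size alone, which moved the median of all tested genes by −0.28, called 0 members higher and 14 lower, and the Wald test of DESeq2 called 8 higher and 8 lower.

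**Figure D4:**
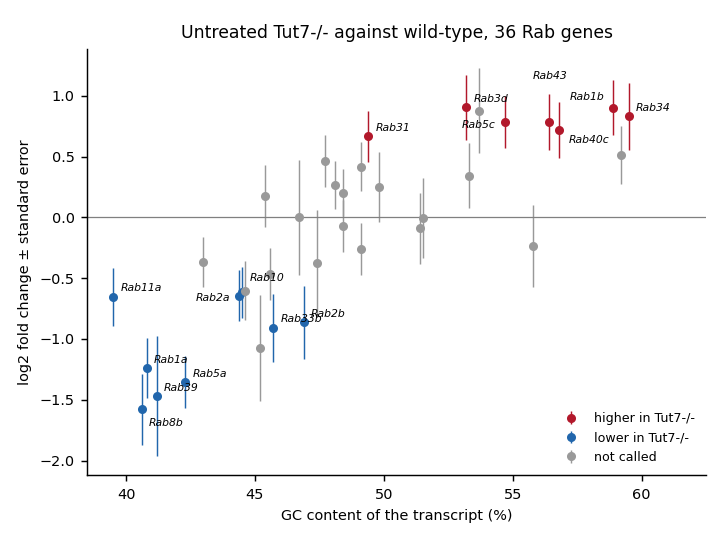
GC content of the transcript (percent) and log2 fold change in untreated BMDMs, Tut7-/- against wild-type, with 1 standard error, for 36 tested Rab genes with a matched transcript, *Rab44* left out. Genes called higher (red) lie at 49.4% GC and above, and genes called lower (blue) at 46.9% and below.

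**Figure D5:**
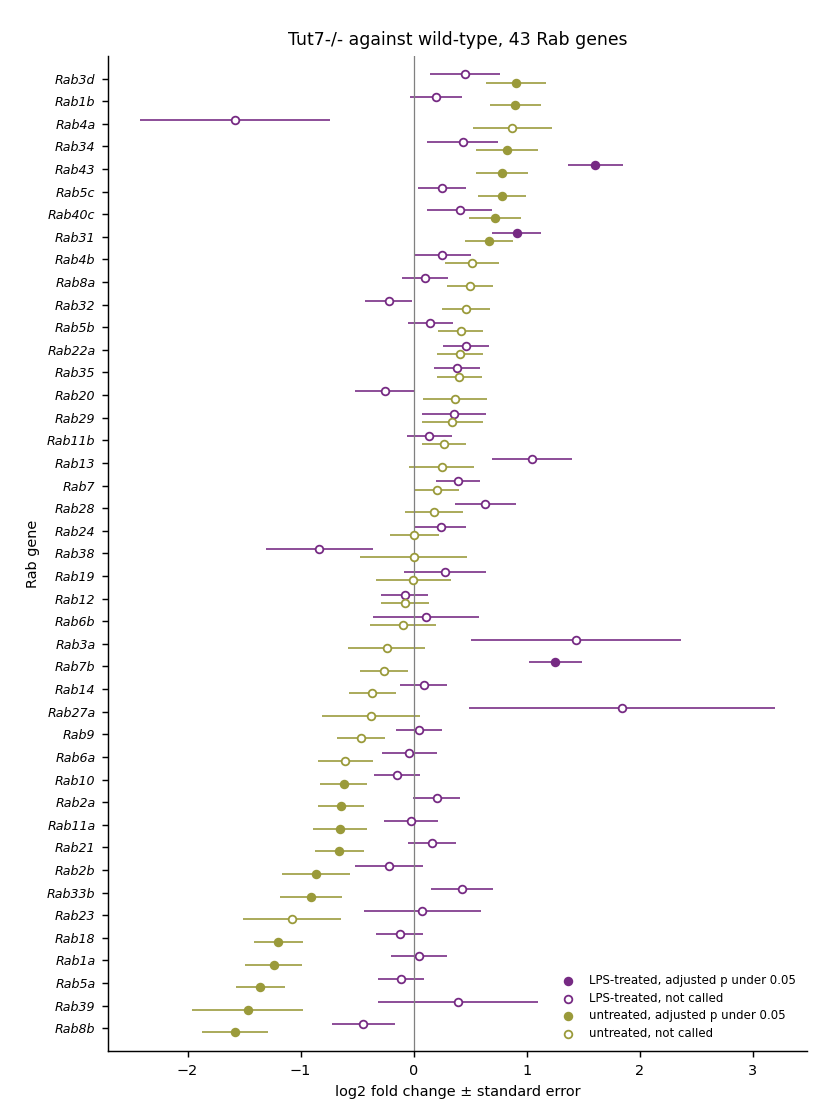
Log2 fold change of 43 tested Rab genes, Tut7-/- against wild-type, in LPS-treated (purple) and untreated (olive) BMDMs, with 1 standard error; filled points were called and *Rab44* is left out. After LPS only *Rab43*, *Rab7b* and *Rab31* are filled. *Rab8b*, *Rab5a* and *Rab1a* are called lower only in untreated BMDMs, and after LPS lie at −0.44, −0.11 and 0.05.

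The last comparison asked whether the LPS response itself differs between the genotypes. It did for *Rab7b*, *Rab5a* and *Rab1a*, each with the more positive log2 change in Tut7-/- BMDMs, where 4.06% of all tested genes had a higher and 0.435% a lower one. No member had a lower one by edgeR or by the Wald test of DESeq2, and 3 did at an unadjusted p under 0.05. For *Rab7b* the difference was 1.51 (standard error 0.316, edgeR adjusted p = 0.022), a smaller fall in Tut7-/- BMDMs. For *Rab5a* it was 1.24 (standard error 0.294, edgeR adjusted p = 0.031) and for *Rab1a* 1.29 (standard error 0.348, edgeR adjusted p = 0.049). *Rab5a* and *Rab1a* reached like levels after LPS (199 and 190 CPM in Tut7-/- libraries and 228 and 191 CPM in wild-type libraries for *Rab5a*, 394 and 379 CPM in Tut7-/- and 391 and 357 CPM in wild-type ones for *Rab1a*), and had lower untreated values in Tut7-/- BMDMs. Their genotype log2 fold changes after LPS were −0.11 (95% interval −0.54 to 0.32) and 0.05 (−0.47 to 0.57).

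All 3 differences lost the call without any one of the untreated wild-type, LPS-treated wild-type or LPS-treated Tut7-/- libraries, each of which left 0 members called, while without untreated Tut7-/- replicate 2 there were 17 (14 higher, 3 lower). With the length and GC correction *Rab7b* kept its call (1.08, edgeR adjusted p = 0.014), *Rab5a* (0.39) and *Rab1a* (0.40) lost theirs, and *Rab43* (0.96, edgeR adjusted p = 0.031) and *Rab32* (−1.14, edgeR adjusted p = 0.016) were called.

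The proteins that act on Rabs were followed through 147 genes, of which 134 were tested. With LPS 44 rose and 57 fell in Tut7-/- BMDMs, and 28 rose and 53 fell in wild-type BMDMs. The shares higher and lower were 32.8% and 42.5% in Tut7-/- BMDMs, beside 34.8% and 33.2% of all tested genes, and 20.9% and 39.6% in wild-type BMDMs, beside 27% and 30.4%. Of 38 tested GTPase-activating proteins, which switch Rabs off, 12 rose and 19 fell in Tut7-/- and 3 rose and 19 fell in wild-type BMDMs, with median log2 fold changes of −0.80 and −1.03. *Tbc1d1* rose most in both genotypes (2.75 in Tut7-/- and 3.15 in wild-type BMDMs), with *Tbc1d23* (2.04) next in Tut7-/- and *Tbc1d13* (2.24) in wild-type BMDMs. *Tbc1d16* fell by 5.22 on the log2 scale in Tut7-/- and *Tbc1d2* by 4.26 in wild-type BMDMs, while *Grtp1*, with 0 counts after LPS in Tut7-/- libraries and 26 before, was at least 6.07-fold lower over the same floor (4.59-fold at the near end of the exact interval) and *Tbc1d30*, with 0 counts after and 36 before LPS in wild-type libraries, at least 4.48-fold lower (3.46-fold). Of 39 exchange factors 14 rose and 16 fell in Tut7-/- and 13 rose and 12 fell in wild-type BMDMs. Of the exchange factors *Rin2*, which acts on Rab5, rose most in Tut7-/- BMDMs, to 1586 and 1528 CPM against 43.3 and 67 CPM untreated, followed by *Dennd3* (73 counts after LPS and 5 before, 20.8-fold). *Dennd6b* rose by 3.75 in wild-type BMDMs, and *Dennd3* was at least 23.2-fold higher there (17.6-fold at the near end of the exact interval), with 26 counts after LPS and 0 before. *Rab3il1*, an exchange factor for Rab3 and Rab8, fell by 5.55 in Tut7-/- and by 6.36 in wild-type BMDMs, and *Dennd2c* had 1 count after LPS in each genotype.

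Of 49 tested effectors and tethers 17 rose and 19 fell in Tut7-/- and 11 rose and 20 fell in wild-type BMDMs. *Rab11fip1*, which binds Rab11, rose by 5.0 in Tut7-/- and 4.98 in wild-type BMDMs and the Rab5 effector *Appl1* by 3.85 and 3.22. *Mical1* fell by 4.55 and 3.97 and *Plekhm1*, which ties Rab7 to lysosomes, by 2.97 and 3.0. Of 8 genes of prenylation and GDP dissociation inhibition 1 rose and 3 fell in Tut7-/- and 1 rose and 2 fell in wild-type BMDMs. The Rab escort protein gene *Chm* rose (1.32 in Tut7-/- and 1.17 in wild-type BMDMs) and *Rabggta*, the alpha subunit of the transferase that prenylates Rabs, fell (−1.91 and −1.79), as did *Rabac1* (−1.21) in Tut7-/- and *Rabif* (−1.05) in wild-type BMDMs.

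Between the genotypes 27 of the 134 were higher and 29 lower in untreated Tut7-/- than in wild-type BMDMs, and 1 was higher and 2 lower after LPS. These were 20.1% and 21.6% of the 134 untreated, beside 14.8% and 22.2% of all tested genes, and 0.746% and 1.49% after LPS, beside 0.626% and 0.774%. The 3 after LPS were the Rab11 effector *Rab11fip5*, higher at 133 and 146.5 CPM in Tut7-/- against 72.9 and 62.3 CPM in wild-type libraries (log2 fold change 1.04, edgeR adjusted p = 0.039), *Appl1*, lower at 124 and 87.7 CPM in Tut7-/- against 229.7 and 239 CPM in wild-type libraries (−1.14, edgeR adjusted p = 0.029), and the exchange factor *Dennd4a*, lower at 9.02 and 7.96 CPM in Tut7-/- against 28.7 and 25.2 CPM in wild-type libraries (−1.67, edgeR adjusted p = 0.012). Untreated, *Tbc1d23* (−2.04), *Rufy2* (−1.94), *Chml* (−1.92), *Rab11fip2* (−1.82), *Dennd4a* (−1.73), *Dennd4c* (−1.61), *Evi5* (−1.55) and *Chm* (−0.90) were lower in Tut7-/- BMDMs, and *Tbc1d16* (1.36), *Dennd2a* (1.21), *Tbc1d20* (1.16), *Rab11fip5* (1.02), *Mical1* (0.99), *Sbf1* (0.95) and *Rabac1* (0.90) were higher. The LPS response was higher in Tut7-/- BMDMs for *Rufy2* (1.997), *Dennd4c* (1.61) and *Vps41* (1.10), 2.24% of the 134 beside 4.06% of all tested genes, and 0 of the 134 had a lower one by edgeR, with 11 at an unadjusted p under 0.05.

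The genes whose levels went most like *Rab43* over the 8 libraries were *Cnot9* (Pearson's r = 0.987 of log2 CPM), *Kbtbd4* (0.986), *Cyth4* (0.982), *Bahd1* (0.973) and *Col4a5* (0.97), among 10162 genes with a mean log2 CPM above 1. All 8 points share the 4 groups, so these values mainly describe group means that go alike. As for *Rab43*, the mean of each was lowest in LPS-treated and next lowest in untreated wild-type BMDMs. *Kbtbd4*, *Cyth4* and *Col4a5* had the higher Tut7-/- mean after LPS, and *Rab43* had it untreated. *Cyth4*, an Arf exchange factor of leukocytes, had means of 784 CPM in LPS-treated Tut7-/-, 338 CPM in LPS-treated wild-type, 714 CPM in untreated Tut7-/- and 504 CPM in untreated wild-type BMDMs.

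The 15 members that did not pass the filter on low counts were *Rab3b*, *Rab3c*, *Rab9b*, *Rab15*, *Rab17*, *Rab25*, *Rab26*, *Rab27b*, *Rab30*, *Rab33a*, *Rab36*, *Rab37*, *Rab39b*, *Rab40b* and *Rab42*. No library held more than 9 counts of any of them, their totals over the 8 libraries reached at most 33, and *Rab3c*, *Rab17* and *Rab25* had no counts. They include Rabs best known from epithelia, neurons and secretory cells, such as *Rab17* and *Rab25* of epithelial recycling and *Rab37* of mast cell granules, and a difference in them was not detectable at this depth.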

How the data were processed

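Poly(A) RNA of 8 BMDM libraries, 2 in each of 4 groups, was sequenced in pairs of 75 nt reads, which the authors mapped with FANSe3 to mouse RefSeq RNA of mm10. They deposited read counts per gene and RPKM, which are counts scaled to transcript length and library size. Counts were tested and RPKM were used only to set levels of different genes side by side. The other deposited sheet holds the same RPKM and was left out. Strand and the treatment of reads with several matches are not given in the sources used here.

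Genes were filtered with filterByExpr (minimum count 10), scaled by TMM and tested with the robust quasi-likelihood F-test of edgeR 4.0.16 (R 4.3.3) in 1 model of all 8 libraries with 4 groups (4 residual degrees of freedom, common biological coefficient of variation 18.5%). Adjusted p are Benjamini-Hochberg values over 11501 genes and the threshold was 0.05. Standard errors come from the same fit. CPM are counts scaled to the TMM-adjusted library size. Comparisons between the genotypes and those with LPS share libraries. Exact permutation of 2 against 2 libraries cannot give a p below 0.33. The exact counting intervals and the floors cover counting error only. The intervals of log2 fold changes and of their differences rest on the standard errors of the edgeR fit, which include the variation between libraries. Depth was 3767900 to 9394632 counts per library. In simulated counts with the means and depths of the LPS-treated libraries (11358 genes), 26 of 100 genes changed by 1 log2 unit and 82 of 100 changed by 2 were called, so the comparison of the genotypes after LPS misses many changes of 1 log2 unit.

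The alternatives were DESeq2 1.42.0 size factors and its Wald test, library size alone, no filter, the 4 libraries of a comparison alone, a replicate block and leaving out each library. Chosen after the data were seen were a spline of transcript length and GC content (5 degrees of freedom each) as an offset and a fit without both untreated Tut7-/- libraries. Transcripts, positions and sequences were from GENCODE M21 on GRCm38 (mm10). For correlations, GC content was used where the transcript was within 25% of the length that counts and RPKM imply. The offset took GC content without this condition, and 71 genes without a length or GC content took the median of the missing value. The offset of *Rab18*, *Rab20*, *Rab21*, *Rab22a*, *Rab24*, *Rab35* and *Rab8a* thus rests on the GC content of a transcript of unmatched length. The members, the lists and the rule for named genes were chosen with earlier results of these data known. By that rule the genes named are *Rab43* and each member called in a genotype comparison or in the difference of LPS responses. To these come the 6 members with the highest and the 6 with the lowest log2 fold change among those called with LPS. Values are given for each library of the comparison that named a gene, and not always for the other libraries. The labels do not say that the 2 libraries of a group are of separate mice, so p-values reflect the variation between libraries only, and that variation may be technical.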

Additional observations from a re-analysis of the deposited data

Results flagged for a closer look

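The LPS response of 3 Rab genes differed between the genotypes in the test of the difference itself, Tut7-/- minus wild-type. For *Rab7b* the difference was 1.51 on the log2 scale, for *Rab1a* 1.29 and for *Rab5a* 1.24, with edgeR adjusted p of 0.022, 0.049 and 0.031. *Rab7b* fell less with LPS in Tut7-/- BMDMs, and *Rab1a* and *Rab5a* rose more there. The direction held in each of the 14 alternatives for all 3, while the call held in 8 of 14 for *Rab7b*, 5 of 14 for *Rab1a* and 6 of 14 for *Rab5a*. With the correction for length and GC content the values were 1.08 for *Rab7b*, 0.40 for *Rab1a* and 0.39 for *Rab5a*, and the Pearson r of GC content with this difference was −0.485 over 36 members. The part of GC content in the untreated libraries in these differences was not tested further.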

How the results depend on the processing

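The number of Rab genes called with LPS stayed within 22 to 29 in wild-type (27 with all libraries) and 25 to 31 in Tut7-/- BMDMs (32) when single libraries were left out. For the genotypes it ran from 5 to 26 untreated (19), from 0 to 3 after LPS (3), and from 0 to 17 for the difference of the LPS responses (3). The 4 libraries of the comparison alone gave 7 untreated and 9 after LPS, library size alone 1 after LPS, DESeq2 size factors 1 and no filter 6 for the difference. The median of all tested genes moved by −0.83 with library size alone for LPS in wild-type BMDMs. Over the values of the genes named for their calls and their alternatives, 10 changed direction with a call before or after the change. A further 165 lost and 37 gained a call, and 1910 did none of these. The 1910 include changes of direction in values not called before or after. For LPS in wild-type BMDMs, *Rab2a* went from 0.338 to −0.154 and *Rab11a* from 0.355 to −0.39 with the length and GC correction. The 10 were, with the length and GC correction, *Rab43* (0.51), *Rab2a* (−0.059), *Rab34* (0.15), *Rab39* (−1.44) and *Rab11a* (−0.61) for LPS in Tut7-/- BMDMs and *Rab2a* (0.088), *Rab21* (0.19), *Rab10* (0.22) and *Rab11a* (0.38) for the untreated genotypes, and, with library size alone, *Rab5c* (−0.022) for LPS in Tut7-/- BMDMs. With the length and GC correction *Rab14* (−0.97) and *Rab4b* (0.48), which are not among these, also changed direction for LPS in Tut7-/- BMDMs. The cause was not tested.

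The groups share replicate numbers, and the labels do not say whether same-numbered libraries are paired. Deviations of same-numbered libraries from their group means correlated at −0.198 to 0.31, highest between the untreated groups. With 2 libraries per group these values cannot show or exclude a pairing. With the replicate number as a block the counts were 28 with LPS in wild-type, 31 with LPS in Tut7-/-, 19 untreated, 2 after LPS (*Rab31* lost its call, edgeR adjusted p = 0.052) and 3 for the difference.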
